A study of Homo sapiens with 10 samples.

Results

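The mucin family of A549 cells was followed across 10 RNA-seq libraries. A549 is an established human lung adenocarcinoma line. The 10 mucin genes MUC1, MUC2, MUC3A, MUC4, MUC5AC, MUC5B, MUC13, MUC15, MUC16 and MUC20 were chosen by family membership from a table of 33551 rows. Earlier results of these libraries, above all the differences of MUC5AC between lines, were known when the family was picked. The line differences of the members are therefore given as a description, and the comparison with and without the vector is the one tested. Reads were found for 9 of the 10 genes, and MUC15 had 0 counts in the 10 libraries.

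The series covered 5 A549 lines. The labels give them as ABCA3 wild type (WT), ABCA3 knockout (KO) and the ABCA3 variants L101P, E292V and E690K. An untreated library of each line was set beside one from cells left overnight with LV-ABCA3:GFP, a VSVG lentiviral vector for an ABCA3 and GFP fusion, at a multiplicity of infection (MOI) of 20. ABCA3 moves surfactant lipids into the storage organelles of alveolar type 2 cells. Each genotype is 1 line and each line and treatment is 1 library, and nothing in the labels says whether a line is a clone, so p-values measure only the spread between these libraries.

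Mucins are large glycoproteins whose serine- and threonine-rich repeats carry dense O-linked sugars. MUC2, MUC5AC and MUC5B are secreted and polymerise through disulfide bonds into mucus gels. MUC5B is the main gel-former of the resting airway, MUC5AC rises in goblet cells of irritated or allergic airways, and MUC2 is chiefly a mucin of the intestine. The other 7 are anchored in the cell membrane, where MUC1 and MUC16 are also known as tumour antigens.

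The repeats that mark mucins are shown first, because they bear on how reads can be assigned. The 5 lines below give the most frequent 30-base unit in the longest annotated transcript (GENCODE release 29) of each gene, 5′ to 3′ on the sense strand. They are in lower case throughout because no base is singled out.
MUC5AC: agccctgttcccaccaccagcacaacctct
MUC5B: accccagggaccacctggatcctcacagag
MUC2: gtgaccccaaccccaacacccaccggcaca
MUC1: ccacggtgtcacctcggccccggacaccag
MUC16: acagtctctatgtcaatggtttcacccatc
The unit occurred 14 times in MUC5AC, 6 times in MUC5B, 38 times in MUC2, 37 times in MUC1 and 7 times in MUC16. Windows of 50 bases that occur more than once within their own transcript made up 42.4% of MUC1, 29.2% of MUC5B, 28.3% of MUC4, 21.4% of MUC5AC, 21.4% of MUC2 and 19.7% of MUC20. The share was 1.86% in MUC3A and 1.07% in MUC16, and 0 in MUC13 and MUC15. Few windows were shared with other genes, 0.379% for MUC5AC and 2.3% for MUC5B, except in MUC20, where 69.1% were shared and 46.6% with MUC20P1 alone. How reads with several matches were counted is not given in the sources used here, so the level of MUC20 is uncertain. Reads from repeats within a transcript also match several places, so the levels of MUC1, MUC5B, MUC4, MUC5AC and MUC2 may be affected too.

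Promoters are shown for MUC13, whose levels ran with those of MUC5B, for MUC1, which had the smallest p in the vector comparison, and for MUC2 of the same gene cluster as MUC5AC. RefSeq promoter windows (GRCh38.p14) matched 6 of the 10 members. MUC5AC, MUC5B, MUC15 and MUC20 had no entry. Each line gives the 250 bases before the RefSeq start, 5′ to 3′ on the gene's strand, with motif matches in capitals. The windows are chr3:124934752-124935001 on the minus strand for MUC13, chr1:155192916-155193165 on the minus strand for MUC1 and chr11:1074624-1074873 on the plus strand for MUC2. The GENCODE span of MUC13 given below reaches farther upstream through a noncoding transcript, so that this window lies inside it, just before the start of its longest coding transcript.
MUC13: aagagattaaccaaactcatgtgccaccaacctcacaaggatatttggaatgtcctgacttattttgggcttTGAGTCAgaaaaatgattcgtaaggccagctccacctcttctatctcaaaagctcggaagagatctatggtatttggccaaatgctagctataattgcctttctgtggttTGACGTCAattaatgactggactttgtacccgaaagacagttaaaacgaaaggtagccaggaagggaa
MUC1: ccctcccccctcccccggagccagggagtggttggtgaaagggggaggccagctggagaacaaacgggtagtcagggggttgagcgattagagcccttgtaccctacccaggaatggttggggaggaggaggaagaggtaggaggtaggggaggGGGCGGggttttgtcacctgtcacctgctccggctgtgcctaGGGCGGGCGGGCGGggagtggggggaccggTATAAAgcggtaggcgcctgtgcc
MUC2: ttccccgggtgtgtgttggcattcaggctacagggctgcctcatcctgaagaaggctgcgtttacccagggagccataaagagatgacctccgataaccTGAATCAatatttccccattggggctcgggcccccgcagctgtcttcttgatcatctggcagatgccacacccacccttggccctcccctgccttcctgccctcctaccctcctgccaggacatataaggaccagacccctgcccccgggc
The motifs searched on both strands were the initiation box TATAAA, the Sp1 motif GGGCGG, the Fos and Jun motif TGANTCA, the forkhead motif TGTTTAC and the cyclic AMP response element TGACGTCA. The MUC13 window held TGANTCA from 178 to 172 bases before the start and TGACGTCA from 68 to 61 bases before it. The MUC1 window held TATAAA from 24 to 19 bases before the start and 4 copies of GGGCGG, of which 3 overlap one another. The MUC2 window held 1 TGANTCA. Over 35116 RefSeq promoters of the same length, TATAAA was found in 10.7%, GGGCGG in 42.6%, TGANTCA in 6.57%, TGTTTAC in 2.98% and TGACGTCA in 1.65%. A match is a run of letters and not a shown site of binding.

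The libraries held 59430095 to 96811421 counts. Levels are given as CPM, the count scaled to the library total. Low counts were mostly even (81.4% of the values from 1 to 10), as when both mates of a pair are counted, so 95% Wilson intervals were taken on read pairs. They cover counting error only, since reads carry no molecular identifiers. The epithelial keratins KRT8 (3721 to 7719 CPM) and KRT18 (1608 to 3239 CPM) were high in the 10 libraries. The type 2 cell genes SFTPC (at most 0.337 CPM), SFTPB (at most 0.124 CPM) and NKX2-1 (at most 0.192 CPM) were near 0. The pair labelled KO went against its labels: ABCA3 stood at 601 CPM in the library labelled untreated and 25.8 CPM in the one labelled transduced, and the EGFP row at 37.9 and 0.0492 CPM. In the other 4 lines the EGFP row was higher in the transduced library, but only from 16.3 to 18.0 CPM in E690K, and untreated WT held 70.9 CPM, more than transduced L101P (35.9), E292V (66.8) or E690K. ABCA3 was lower in transduced (896 CPM) than in untreated L101P (1156 CPM). The part of these values in the vector comparison was not tested. The KO libraries are therefore named below by label only.

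MUC5B carried most of the mucin reads. It lies on chromosome 11 from 1223066 to 1262172 on the plus strand (GRCh38, GENCODE release 29). It stood at 205 CPM in untreated and 275 CPM in transduced WT. The libraries labelled KO untreated and KO transduced had 364 and 621 CPM. L101P had 447 CPM untreated and 1198 CPM transduced, E292V 177 and 89.5 CPM, and E690K 453 and 422 CPM. The highest library was 13.4-fold above the lowest, and among the 9 neighbouring pairs in the order of levels only untreated L101P and untreated E690K had overlapping intervals. MUC5B made up 67.6% to 82.0% of the reads of the 10 members in each library. MUC5B-AS1, an antisense gene, overlaps it over 7416 bases, and whether the counting used strand is not given in the sources used here.

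MUC5AC had the widest range of the members detected in all 10 libraries. It lies next to MUC5B on chromosome 11, from 1157953 to 1201138. WT had 14.2 CPM untreated and 21.8 CPM transduced. The libraries labelled KO untreated and KO transduced had 64.7 and 178 CPM. L101P had 77.4 and 447 CPM, E292V 17.5 and 10.4 CPM, and E690K 103 and 91.4 CPM, untreated before transduced. The range was 42.8-fold, and no neighbouring pair in the order of levels had overlapping intervals. Transduced L101P and transduced KO were the highest and transduced E292V the lowest, and both WT libraries and both E292V libraries lay below the other 6. Because MUC5AC varied more than MUC5B, its ratio to MUC5B went from 0.069 in untreated WT to 0.373 in transduced L101P.

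MUC2, the third gene of the chromosome 11 cluster (1074875 to 1110511), was scarce. It had 0 counts in untreated WT and in transduced E292V, where the interval reaches up to 0.092 and 0.081 CPM. The other 8 libraries held 0.203 to 2.66 CPM, from 16 to 258 counts, and transduced L101P was again the highest. Intervals overlapped in 7 of the 9 neighbouring pairs.

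Among the membrane mucins MUC13, a mucin of gastrointestinal epithelium, was the most abundant. It lies on chromosome 3 from 124905442 to 124953819 on the minus strand. MUC13 had 29.6 CPM in untreated and 31.1 CPM in transduced WT, 30.2 and 41.9 CPM in the pair labelled KO, 50.5 and 109 CPM in L101P, 18.3 and 10.7 CPM in E292V, and 55.1 and 49.2 CPM in E690K. The order had the same ends as that of MUC5B and MUC5AC, with a 10.2-fold range. Untreated WT, untreated KO and transduced WT could not be separated by their intervals.

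MUC1 (chromosome 1, 155185824 to 155192916) and MUC3A (chromosome 7, 100949555 to 100968346) were low and varied little. MUC1 ran from 2.67 CPM in untreated WT to 6.70 CPM in transduced L101P, with a median of 3.51 CPM. MUC3A, an intestinal membrane mucin, ran from 2.63 to 6.71 CPM between the same libraries, with a median of 3.32 CPM. In each gene 8 of the 9 neighbouring pairs had overlapping intervals, and transduced L101P alone stood clear at the top.

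MUC16, the largest of the membrane mucins (chromosome 19, 8848844 to 8981342), had 0.455 and 0.345 CPM in WT and 0.190 CPM in transduced E292V. Untreated E292V had 1.04 CPM. The pair labelled KO held 2.37 and 2.29 CPM, L101P 1.41 and 2.71 CPM, and E690K 1.93 and 1.41 CPM. The 6 libraries of KO, L101P and E690K thus lay above the 4 of WT and E292V, but the intervals of untreated E292V and untreated L101P overlapped.

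MUC4 and MUC20, neighbours on chromosome 3 (195746765 to 195812277 and 195720882 to 195741123), were close to the limit of 3 read pairs, which is at most 0.101 CPM. MUC4, a partner of the receptor ERBB2, had 4 to 30 counts per library. MUC20, a partner of the receptor MET, had 2 to 20. All 9 neighbouring pairs overlapped in each, so no order of libraries could be read. The long noncoding MUC20-OT1 overlaps MUC20 on the same strand over 19083 bases and stood at a mean of 32.9 CPM. For MUC15 (chromosome 11, 26559033 to 26572233), the intervals of 0 counts reach 0.0794 to 0.129 CPM.

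**Figure D1:**
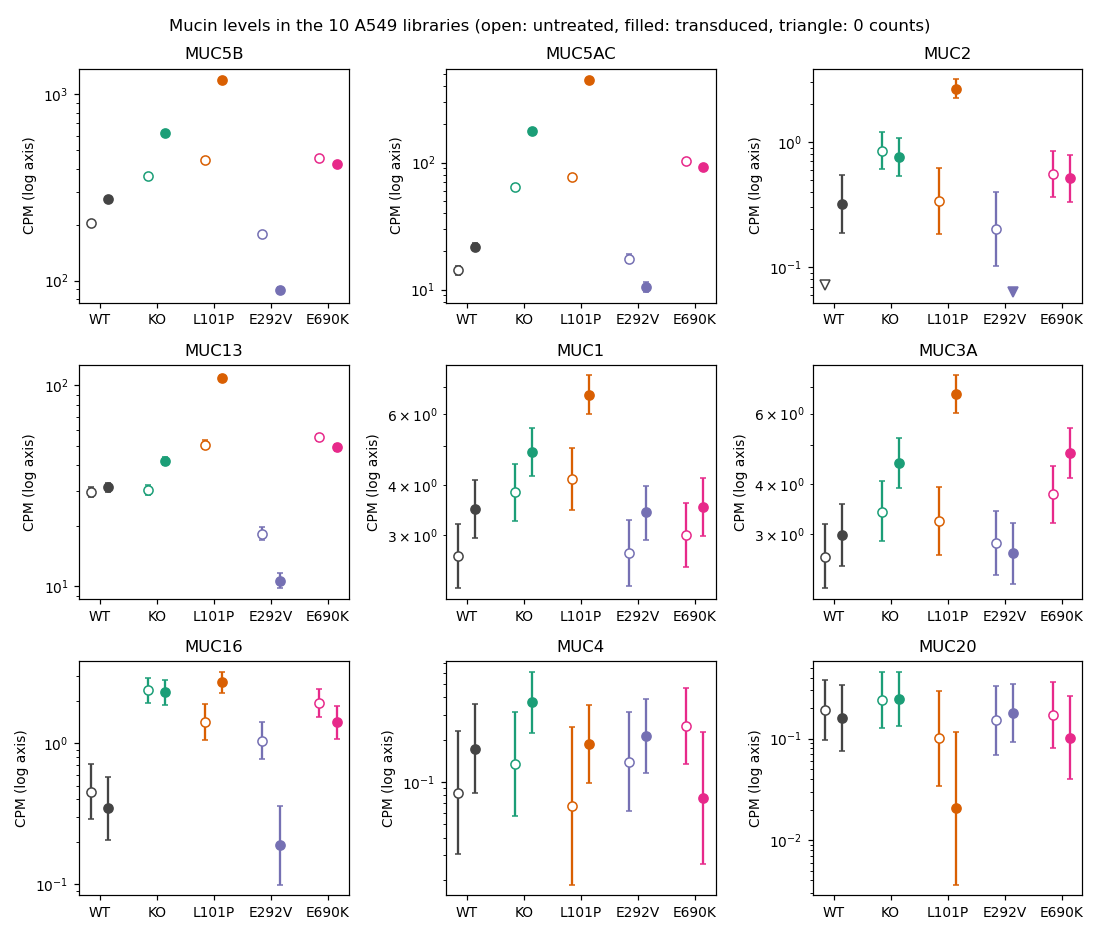
CPM on log axes of the 9 mucins with reads, by line (x axis), with open circles for untreated and filled circles for transduced libraries. Bars are 95% Wilson intervals on read pairs, and triangles mark 0 counts. MUC5B, MUC5AC, MUC13, MUC1, MUC3A, MUC2 and MUC16 are highest in transduced L101P, from 1198 CPM for MUC5B to 2.66 CPM for MUC2.

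Levels of different genes were compared per kilobase of annotated exons. The mean over the 10 libraries was 22.9 CPM per kb for MUC5B, 12.2 for MUC13, 5.88 for MUC5AC, 0.813 for MUC1 and 0.330 for MUC3A. MUC2 (0.049), MUC20 (0.0368), MUC16 (0.0323) and MUC4 (0.00793 CPM per kb) followed. The short MUC13 transcript thus stood above MUC5AC per length although it gave fewer reads. The part of repeats within the transcripts in this order was not tested.

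The first comparison was transduced against untreated over the 5 lines, which addresses what the ABCA3 vector does to mucin expression. No mucin passed the test. Called in the vector comparison were 0 of 9 members, against 0 of 17978 genes (0.00%) in the same edgeR quasi-likelihood fit with Benjamini-Hochberg adjustment. The smallest adjusted p over all genes was 0.109. An unadjusted p under 0.05 was reached by 1236 of them. DESeq2 called 113 genes and 0 members. The fitted change was above 0 for 7 members and below 0 for 2, with a median log2 change of 0.40 beside 0.00 over all genes. With the KO labels exchanged it was above 0 for 5 and below 0 for 4, with a median of 0.0025.

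MUC1 had the smallest p of the members. Its level in the library labelled transduced was 1.62-fold that of the untreated one in L101P, 1.30-fold in WT, 1.26-fold in E292V, 1.17-fold in E690K and 1.26-fold in KO. By the labels it was higher in 5 of 5 lines, and with the KO pair turned (0.796-fold) in 4 of 5. The fitted log2 change was 0.42 (SE 0.12, adjusted p = 0.423, edgeR), and 0.28 with the KO labels exchanged. The counting intervals of the fold reached below 1 in E292V (0.986) and E690K (0.914).

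MUC5AC had a fitted log2 change of 0.78 (SE 0.35, adjusted p = 0.716, edgeR), with the 5 lines divided in direction. Transduced over untreated, its level was 5.77-fold in L101P (counting interval 5.53 to 6.02), 1.54-fold in WT, 0.595-fold in E292V (0.530 to 0.668) and 0.885-fold in E690K. In the KO pair it was 2.75-fold by the labels and 0.363-fold if they are exchanged, which leaves 2 lines higher and 3 lower. The fitted log2 change with the KO labels exchanged was 0.12. Without the pairs of KO and L101P, a setting chosen after seeing the data, the fitted log2 change was -0.08. Without a filter on low counts the MUC5AC value was 0.78 with an adjusted p of 0.000754 by edgeR, in a fit that called 237 of 24252 genes (0.977%), so the call depended on that filter.

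MUC5B and MUC13 divided the same way. Transduced over untreated, MUC5B was 2.68-fold in L101P, 1.34-fold in WT, 0.506-fold in E292V and 0.931-fold in E690K. In the KO pair it was 1.70-fold by the labels and 0.587-fold if they are exchanged. The fitted log2 change was 0.33 (SE 0.24, adjusted p = 0.873, edgeR). It was 0.0025 with the KO labels exchanged and -0.20 without the pairs of KO and L101P. MUC13 was 2.15-fold in L101P, 1.39-fold in KO by the labels (0.719-fold if exchanged), 1.05-fold in WT, 0.583-fold in E292V and 0.892-fold in E690K. Its fitted log2 change was 0.18 (SE 0.19, adjusted p = 0.934, edgeR), -0.07 without the L101P pair and -0.03 with the KO labels exchanged.

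MUC3A was higher in the library labelled transduced in 4 of 5 lines, up to 2.08-fold in L101P, and in 3 of 5 with the KO pair turned. Its fitted log2 change was 0.40 (SE 0.16, adjusted p = 0.619, edgeR), and 0.23 with the KO labels exchanged. MUC16 was 0.183-fold in transduced E292V, from 82 counts to 18, and 1.91-fold in transduced L101P. Its counting intervals included 1 in WT (0.380 to 1.51), KO (0.721 to 1.29) and E690K (0.514 to 1.03). Its fitted log2 change was -0.36 (SE 0.36, adjusted p = 0.926, edgeR), and 0.05 without the E292V pair. MUC2 rested on few reads, with 20 counts in untreated and 258 in transduced L101P, a 7.92-fold difference with a counting interval of 4.16 to 15.1. MUC4 (0.62, SE 0.69) and MUC20 (-0.44, SE 0.65) had errors larger than their fitted values.

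Line by line, the members did not move alike. Of the 9 with reads, 8 were higher in transduced than in untreated L101P, 7 in WT, 3 in E292V and 2 in E690K. In the KO pair 7 were higher by the labels and 2 if they are exchanged. More than 2-fold higher in the transduced library were 6 members in L101P, where 6.93% of all genes tested were, and 2 in WT (5.82%). In E292V (5.61%) and E690K (5.77%) there were 0. More than 2-fold lower were 2 in E292V (6.44%), 1 in E690K (6.42%), 0 in WT (5.72%) and 1 in L101P (8.08%). In the KO pair 2 were higher (5.31%) and 0 lower (6.93%) by the labels, and the reverse if they are exchanged. Where the mean level reached 1 CPM or more, 4 of 6 members and 171 of 12965 genes (1.32%) were more than 2-fold higher in L101P. Each of these rests on 1 library against 1, so it has no replicate check, and the difference between lines was not tested.

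**Figure D2:**
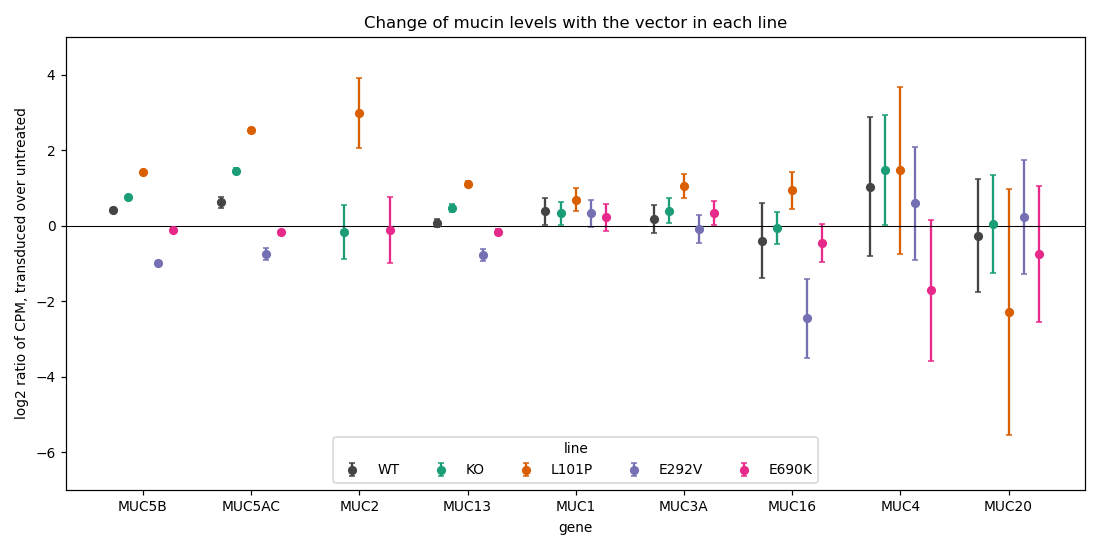
log2 ratio of CPM, transduced over untreated, for each mucin (x axis) in each line (colour, KO as labelled), with 95% counting intervals as bars. L101P is the highest line for MUC5AC (2.53), MUC5B and MUC13, while E292V lies below 0 for these genes. Ratios with a count of 0 are not drawn.

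The second comparison set each edited line against WT in the additive fit, with the error taken from how far the libraries depart from additivity. The 4 contrasts share the WT libraries. In L101P the members called were 5 of 9, all higher, where 3.94% of the 17978 genes were called. In the line labelled KO they were 2 of 9 (1.80% of all genes), in E690K 1 of 9 (5.38%) and in E292V 0 of 9 (1.05%). In the test for any difference among the 5 lines they were 5 of 9 (13.0% of all genes). Since the members were picked with these contrasts known, nothing is read from these counts.

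MUC5AC was higher than in WT by a fitted log2 of 3.71 (SE 0.58) in L101P, 2.68 (SE 0.55) in the line labelled KO and 2.59 (SE 0.55) in E690K, and -0.23 (SE 0.55) in E292V. In untreated libraries alone its level was 7.29-fold that of WT in E690K, 5.46-fold in L101P, 4.57-fold in KO and 1.24-fold in E292V. Among transduced libraries the values were 20.5-fold in L101P, 8.17-fold in KO, 4.19-fold in E690K and 0.479-fold in E292V. E690K was thus the highest edited line without the vector and L101P with it.

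MUC5B gave fitted log2 differences of 1.77 (SE 0.38) in L101P, 1.04 (SE 0.37) in KO, 0.94 (SE 0.37) in E690K and -0.79 (SE 0.38) in E292V. MUC13 gave 1.41 (SE 0.30) in L101P, 0.84 (SE 0.29) in E690K, 0.27 (SE 0.29) in KO and -1.06 (SE 0.30) in E292V. The fitted values of the secreted gel-former and the membrane mucin thus had the same sign in each of the 4 lines. In KO the MUC13 value was smaller than its SE, so its sign there is not settled.

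MUC16 differed from WT by a log2 of 2.59 (SE 0.58) in the line labelled KO and 2.50 (SE 0.59) in L101P. It differed by 2.10 (SE 0.58) in E690K and 0.51 (SE 0.60) in E292V. MUC1 differed by 0.84 (SE 0.19) in L101P, 0.53 (SE 0.19) in KO, 0.15 (SE 0.19) in E690K and -0.01 (SE 0.19) in E292V. MUC3A lay between -0.02 in E292V and 0.82 in L101P. MUC2 was fitted at 3.27 (SE 1.25) in L101P and 2.63 (SE 1.28) in KO, against a WT line with 0 and 26 counts. The fitted values therefore rest on few reads in WT.

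The number of calls in these contrasts changed with the libraries fitted, which share a common estimate of error. Without the E690K pair, 0 members were called in KO (0.827% of all genes) and 1, MUC5AC, in L101P (2.06%). With the KO labels exchanged 0 were called in KO (0.790%), 2 in L101P (2.04%) and 0 in E690K (3.33%), so that the calls over all genes fell as well. Without the KO pair 3 were called in L101P (2.47%), 1 in E690K (3.60%) and 0 in E292V (0.496%). Removing the E292V or the L101P pair kept or raised the calls. Without the E292V pair they were 2 in KO (2.17%), 5 in L101P (4.17%) and 4 in E690K (5.29%). Without the L101P pair they were 3 in KO (6.34%), 5 in E690K (11.2%) and 2 in E292V (3.89%).

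**Figure D3:**
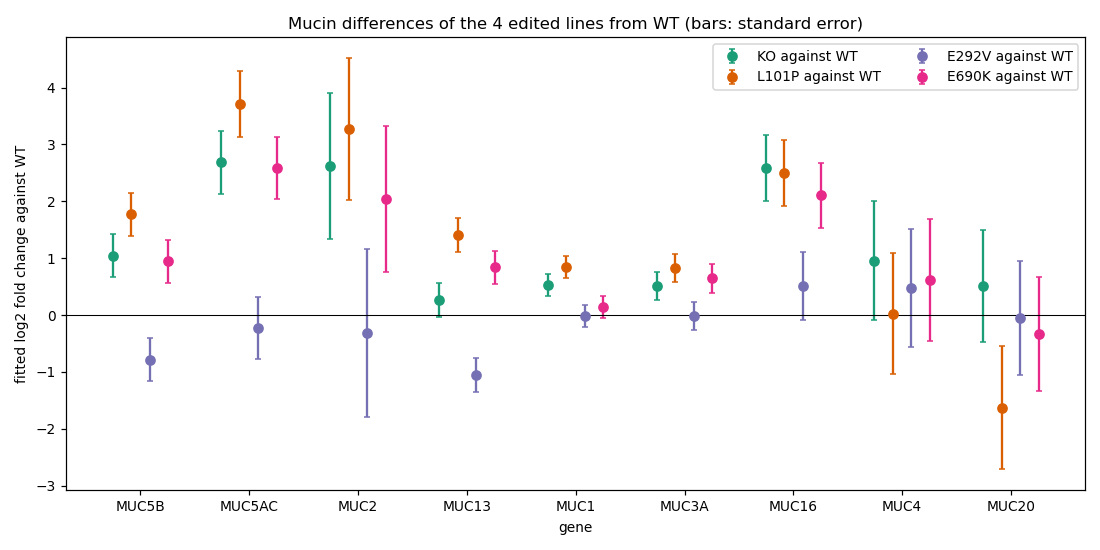
Fitted log2 fold change of each mucin (x axis) in the 4 edited lines against WT, with standard errors as bars. MUC5AC and MUC16 are above 2 on the log2 scale in KO, L101P and E690K, and MUC5B and MUC13 are below 0 in E292V.

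The members' levels ran together to different degrees over the 10 libraries. On the log2 CPM scale Pearson's r of MUC5AC and MUC5B was 0.964 (Spearman's rho 0.976), and 0.972 without the libraries of transduced L101P and transduced E292V. MUC5B and MUC13 gave r = 0.957, and 0.846 without these 2. MUC3A and MUC5AC gave 0.932, and 0.954 without transduced L101P and transduced E690K, the libraries farthest from the MUC3A median. MUC1 and MUC5AC gave 0.821, and 0.550 without transduced L101P and the library labelled KO transduced, the farthest from the MUC1 median. MUC4 and MUC5B gave 0.164. These are descriptions over libraries that share lines, treatments and depth.

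**Figure D4:**
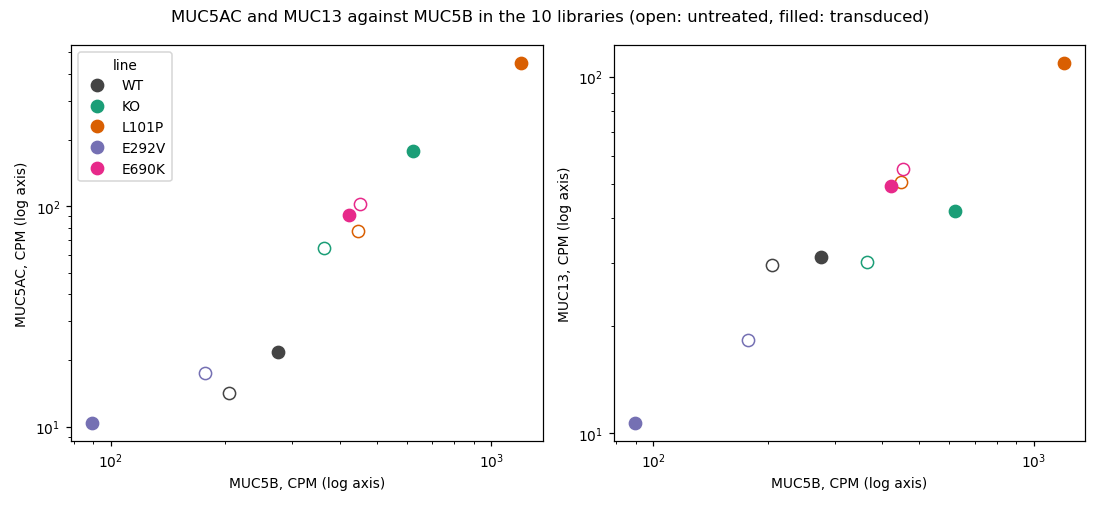
MUC5AC (left) and MUC13 (right) against MUC5B, in CPM on log axes, for the 10 libraries, coloured by line, with open circles untreated and filled circles transduced. Transduced E292V is at the lower end and transduced L101P at the upper end of both panels, and untreated WT lies below untreated E292V in MUC5AC but above it in MUC5B.

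The genes outside the family whose log2 CPM followed MUC5AC most closely, of 12965 compared over the 10 libraries, were IRS1, the insulin receptor substrate (r = 0.985), the leukocyte integrin chain ITGB2 (0.983), ARHGAP26 (0.983), the organic anion exporter ABCC3 (0.978) and PKD2 (0.978). IRS1 moved little, from 91.0 to 145 CPM, and ITGB2 from 2.64 to 10.4 CPM. For MUC5B they were SEMA3B (0.987), the dystroglycan gene DAG1 (0.982), TMBIM6 (0.981), the TGF-beta receptor TGFBR2 (0.981) and the potassium channel KCNK1 (0.980). All 10 were lowest in transduced E292V and highest in transduced L101P. Both mucins have these ends, so a choice by correlation favours such genes. Without these 2 libraries r was 0.957 to 0.985.

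The genes around the chromosome 11 cluster passed no test. Of the 11 within 250 kb that averaged 1 CPM or more, among them TOLLIP and AP2A2, 0 were called in the 5 comparisons by edgeR (smallest adjusted p = 0.071, for BRSK2 in KO), and the widest range over the libraries was 2.79-fold. Around MUC4 and MUC20, 0 of 4 were called (smallest adjusted p = 0.187, edgeR). Of all genes, 0.00% for the vector to 5.38% in E690K were called in these comparisons. Counts of 0 among so few genes are near these shares.

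Genes that work with mucins were taken from 5 lists chosen with the earlier results known, so their line differences are a description only. None of the listed genes passed the vector comparison. Median log2 changes with the vector were 0.16 for 6 other mucins and mucin-like genes tested, 0.12 for 28 genes of O-glycosylation, 0.10 for 17 of folding and secretion, -0.06 for 18 regulators and 0.10 for 13 partners of membrane mucins.

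Of the other mucins 0 of 6 were called in any line contrast. Of all genes, 1.05% (E292V) to 5.38% (E690K) were, so 0 of 6 is near that share. MUC12, an intestinal membrane mucin, ran from 0.393 CPM in untreated E292V to 3.15 CPM in transduced L101P. OVGP1 ran from 2.23 to 4.92 CPM and the adhesion molecule MCAM from 19.4 to 29 CPM.

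In O-glycosylation the GALNT enzymes, which add the first sugar to serine or threonine, changed in both directions. GALNT5 rose and GALNT14 and GALNT16 fell in KO, L101P and E690K. GALNT5 rose by a log2 of 1.17 (SE 0.17) in KO, 1.14 in L101P and 1.13 in E690K. GALNT16 had 4.38 and 5.88 CPM in WT and 7.46 and 16.3 CPM in E292V, against 0.774 to 1.52 CPM in the other 6 libraries. Its log2 change was -1.91 (SE 0.33) in E690K, -2.37 (SE 0.34) in L101P and -2.58 (SE 0.34) in KO. In L101P GALNT7 and B3GNT3, which extends the core sugar, also rose, and in E690K GALNT2, GALNT9 and GALNT13. Called in all were 3 of 28 in KO (1.80% of all genes), 5 in L101P (3.94%), 6 in E690K (5.38%) and 0 in E292V (1.05%). The medians in KO (0.18) and L101P (0.16) were above those of all genes (between -0.02 and 0.00). In E690K (0.02) and E292V (-0.01) they were near them. ST6GALNAC1, which caps the first sugar with sialic acid, was highest in transduced L101P (20.5 CPM) and lowest in transduced E292V (3.28 CPM) and did not pass in any contrast.

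In folding and secretion TFF1, a trefoil peptide secreted with MUC5AC, had the widest range. It had 2.82 and 2.58 CPM in WT, 17.6 and 35.5 CPM in the pair labelled KO, 20.8 and 106 CPM in L101P, 1.98 and 0.654 CPM in E292V, and 37.9 and 38.0 CPM in E690K. The WT and E292V libraries lay below the other 6, as for MUC5AC. TFF1 rose by a log2 of 4.42 (SE 0.61) in L101P, 3.87 (SE 0.59) in E690K and 3.24 (SE 0.58) in KO. The value was -1.05 (SE 0.67) in E292V. FCGBP, a mucus protein that binds mucin networks, rose in L101P (1.37, SE 0.25) and fell in E292V (-1.58, SE 0.26). AGR2, the disulfide isomerase needed to fold gel-forming mucins, ran from 164 CPM in transduced E292V to 884 CPM in transduced L101P and passed in none of the 4 contrasts. L101P had 2 of the 17 called (median 0.63, 3.94% of all genes). KO (0.33, 1.80%), E292V (-0.14, 1.05%) and E690K (0.05, 5.38%) had 1 each, which in E690K is near the share over all genes.

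Of the regulators KLF4, an epithelial transcription factor, rose by a log2 of 0.73 (SE 0.11) in E690K, 0.66 (SE 0.11) in L101P and 0.48 (SE 0.11) in KO. SPDEF, the transcription factor of goblet cells, fell in E292V by 1.03 (SE 0.20), with 34.4 and 18.9 CPM against 60.2 and 46.4 CPM in WT. Its fitted values of -0.50 in E690K, 0.43 in KO and 0.51 in L101P did not pass. ELF3 fell by 0.46 and XBP1, a factor of secretory capacity, by 0.76 on the log2 scale in E690K. EHF ran from 2.61 to 16.8 CPM and CDX2 from 0.397 to 1.48 CPM, and neither passed. E690K had 3 of the 18 called (median -0.24, 5.38% of all genes). KO (0.09, 1.80%), L101P (0.15, 3.94%) and E292V (0.05, 1.05%) had 1 each, which in L101P is near the share over all genes.

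Among partners of membrane mucins the receptor MET rose in KO (0.34), L101P (0.35) and E690K (0.55), each with an SE of 0.07. MSLN, the mesothelin that binds MUC16, rose in L101P (0.77, SE 0.16) and E690K (1.02, SE 0.16). EGFR rose in E690K (0.78, SE 0.11) and the protease MMP7 in L101P (1.09, SE 0.25). MMP14, a protease that sheds MUC1, ran from 1.12 to 3.39 CPM and did not pass. L101P (median 0.31, 3.94% of all genes) and E690K (0.12, 5.38%) each had 3 of the 13 called, KO (0.23, 1.80%) had 1 and E292V (0.01, 1.05%) had 0.

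**Figure D5:**
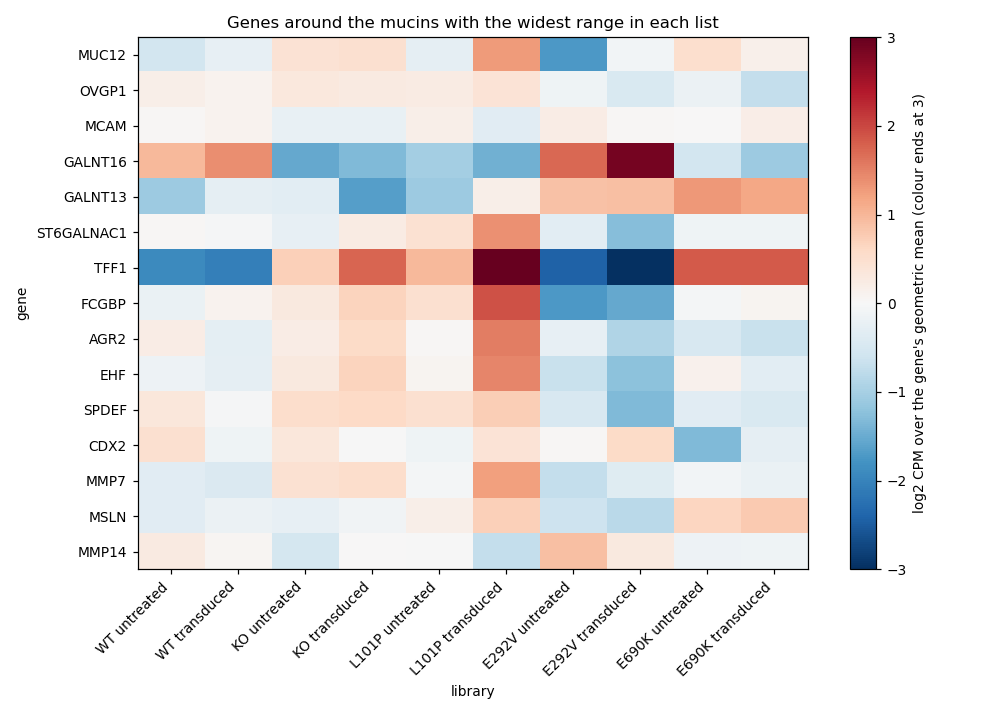
log2 CPM over each gene's geometric mean, as colour, for the 3 genes with the widest range in each of the 5 lists (rows) in the 10 libraries (columns). TFF1 goes from 0.654 CPM in transduced E292V to 106 CPM in transduced L101P, beyond the end of the colour scale at 3.

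Markers of cell types moved with the mucins in part. The 5 epithelial markers summed to 5434 CPM in transduced E292V and 11462 CPM in transduced L101P, the same ends as MUC5B. KRT8 and KRT18 carried the sum, and KRT19 had 62.4 and 459 CPM in these 2 libraries. EPCAM (13.3 and 13.2 CPM) and CDH1 (29.6 and 31.2 CPM) were close to equal in them. The 5 goblet and club cell markers summed to 22.5 and 121 CPM in the same 2 libraries, carried by SPDEF and FCGBP. SCGB3A1 was at 0 and SCGB1A1 at most 0.0384 CPM. Untreated before transduced, the sum was 69.4 and 57.6 CPM in WT and 80.8 and 88.6 CPM in the pair labelled KO. In E690K, where MUC5AC and MUC5B stood above WT, the sum was lower, at 47.4 and 45.7 CPM. The 3 fibroblast markers summed to 13.8 CPM in transduced L101P and 118 CPM in transduced E292V, nearly all of it COL1A1, with COL1A2 at most 0.279 CPM. The 3 immune markers (20.7 to 42.9 CPM) were carried by CD68, with CD3E at 0 and PTPRC at most 0.132 CPM. The ciliated markers summed to 7.01 to 10.5 CPM, the endothelial ones to 0.0985 to 1.02 CPM, and the type 2 cell ones to 26.8 to 1157 CPM, nearly all of it ABCA3. The part of these markers in the mucin results was not tested. In bulk RNA, fewer cells of a type and less RNA per cell cannot be told apart.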

How the data were processed

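RNA-seq was done on 10 libraries of A549 cells, 5 lines each with and without the vector. The authors deposited read counts by gene as whole numbers, in 1 column per library, and 0 columns were left unused. Per the submitters' processing notes, Subread, featureCounts, edgeR and limma were used with GRCh38. Their versions, the strand setting and the rule for multi-mapping reads are not given in the sources used here.

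Counts were fitted here with edgeR 4.0.16 in R 4.3.3. Of 33551 rows, filterByExpr kept 17978, scaled by TMM (factors 0.972 to 1.03). One additive quasi-likelihood fit of line and vector (4 residual degrees of freedom, coefficient of variation 12.9%) used line as the block, since the pairs are the cell lines named in the labels. The Benjamini-Hochberg threshold was 0.05. The standard error (SE) given with an edgeR value is the absolute log2 change divided by the square root of the quasi-likelihood F statistic. DESeq2 1.42.0 was an alternative. Intervals are at 95%, and the detection limit is 3 read pairs (6 counts).

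Members and lists were chosen with earlier results of these data known. Named genes were the members, the 3 genes of each list with the widest log2 CPM range (mean of at least 1 CPM), the 5 genes most alike to MUC5AC and to MUC5B, and neighbours within 250 kb. Other list genes are named where a line contrast called them, after their values were seen. Promoters came from RefSeq and coordinates from GENCODE release 29.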

Additional observations from a re-analysis of the deposited data

Results flagged for a closer look

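The change of MUC4 with the vector in E690K stood apart from the other 4 lines. Its log2 CPM ratio of transduced over untreated was -1.71, from 19 counts to 6, whereas the ratio was above 0 in WT, KO, L101P and E292V. It lay 0.725 of the range over the 5 lines away from the next value, more than the Dixon limit of 0.71. Chance alone gives such a gap in about 1 in 20 sets, and 8 sets were examined. The counting interval of the fold, 0.0835 to 1.12, included no change.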

How the results depend on the processing

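Of 381 member values under other settings, 336 kept their direction and their side of the threshold, 14 lost a call, 22 gained one and 9 changed sign. With no filter on low counts, 1 member was called for the vector (0.977% of all genes) and 4 in KO (4.05%). In the same fit 7 were called in L101P (5.93%), 2 in E292V (2.73%) and 4 in E690K (6.84%). DESeq2 called 2 in E690K (8.14% of all genes) and gave 0.11 for MUC2 in E292V. With the KO labels exchanged, 0 were called in KO (0.790%), 2 in L101P (2.04%) and 0 in E690K (3.33%). The vector change was then -0.0222 for MUC4 and -0.0281 for MUC13. Leaving out each pair in turn gave 0 to 3 calls in KO, 1 to 5 in L101P, 0 to 2 in E292V and 1 to 5 in E690K. The fewest came without the E690K pair in KO (0.827% of all genes) and L101P (2.06%), and without the KO pair in E690K (3.60%). The most came without the L101P pair in KO (6.34%), E292V (3.89%) and E690K (11.2%), and without the E292V pair in L101P (4.17%). Leaving out pairs gave a vector change of -0.0686 to 0.39 for MUC13 (lowest without L101P) and -0.72 to 0.0502 for MUC16 (highest without E292V). For MUC4 in L101P against WT it gave -0.0109 to 0.0518. Without the KO and L101P pairs, a setting added after seeing the data, the vector change was -0.0843 for MUC5AC, -0.20 for MUC5B and -0.26 for MUC13. The cause of these shifts was not tested. Without the replicate block, that is without pairing by line, 0 members were called for the vector (0.00% of all genes). Scaling by TMM put the range of MUC5B at 14-fold. Per length of the longest transcript, MUC20 stood at 0.0551 CPM per kb. Depth limits MUC2, MUC4 and MUC20, which have few reads in most libraries.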
